A study of Mus musculus with 8 samples.

Results

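Mature microRNAs (miRNAs) were measured in ATM-/- mouse embryonic fibroblasts 4 h after neocarzinostatin and compared with the 0 h array of the same genotype. The members are all probes that the authors list in their comparison sheet for this pair of arrays: 185 probes with 182 miRNA names. A second deposited table of ratios to 0 h, the ratio table, holds 431 probes, of which 150 are among the 185. Neocarzinostatin is a radiomimetic drug that breaks both DNA strands, and its dose is not given in the sources used here. The series holds 8 single-colour arrays: ATM+/+ and ATM-/- fibroblasts at 0, 4, 8 and 24 h, grown as dishes of each line in serum-containing medium. Each genotype and time has 1 array, so no difference below has a replicate check and none was tested by replicates. Both arrays compared here lie on 1 chip, and each probe was spotted 3 times.

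The kinase ATM is activated by double-strand breaks in DNA, and related kinases remain in cells that lack it. One route from ATM to miRNAs runs through the RNA-binding protein KSRP, which ATM phosphorylates and which aids the maturation of a group of miRNA precursors, let-7 among them. A mature miRNA recognises its targets mainly through its seed, the bases near its 5′ end, so that miRNAs with one seed share many targets.

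The sequences of the miRNAs on which the results turn are given first, for names that match RefSeq. They are printed 5′ to 3′ with the seed, bases 2 to 8, in capitals, and positions are on GRCm38.p6. The first set was higher in the 4 h array and is shown for its runs of alternating U and G or A and C. miR-466j lies at chr10:60960802-60960824 on the plus strand, miR-1187 at chr5:82798964-82798986 on the minus strand and miR-574-5p at chr5:64970328-64970350 on the plus strand. miR-467h lies at chr9:115381898-115381919 on the plus strand and miR-467f at chr11:69635419-69635439 on the minus strand.
miR-466j: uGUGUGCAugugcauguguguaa
miR-1187: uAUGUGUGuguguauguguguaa
miR-574-5p: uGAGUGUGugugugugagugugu
miR-467h: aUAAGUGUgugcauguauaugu
miR-467f: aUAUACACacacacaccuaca
These 5 have 5 different seeds.

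The second set holds the ends of the ranking by log2 ratio. miR-542-5p, at chrX:53049453-53049474 on the minus strand, was among the highest probes. miR-384-3p, at chrX:105344292-105344313 on the minus strand, miR-882, at chr12:109682207-109682228 on the plus strand, and miR-409-3p, at chr12:109743204-109743225 on the plus strand, were among the lowest.
miR-542-5p: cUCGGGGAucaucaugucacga
miR-384-3p: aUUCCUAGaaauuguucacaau
miR-882: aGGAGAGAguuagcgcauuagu
miR-409-3p: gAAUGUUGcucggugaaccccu

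The third set is let-7, whose members share 1 seed and differ in few bases, so that a probe for one may also read another. The 22 bases of let-7a and let-7c differ at 1 position, as do those of let-7b and let-7c, and those of let-7b and let-7d at 4 positions. The loci given are those found under each name in RefSeq, and need not be all. They are chr13:48538239-48538260 (minus strand) for let-7a, chr15:85707325-85707346 (plus) for let-7b, chr13:48536078-48536099 (minus) for let-7d and chr17:17830366-17830387 (plus) for let-7e. For the name let-7c 2 loci were found, of which 1 is chr15:85706616-85706637 (plus).
let-7a: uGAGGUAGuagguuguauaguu
let-7b: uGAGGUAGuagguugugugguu
let-7c: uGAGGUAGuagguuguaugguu
let-7d: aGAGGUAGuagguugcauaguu
let-7e: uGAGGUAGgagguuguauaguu

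Most of the 185 probes lay close to their 0 h intensity. The median log2 ratio of 4 h over 0 h was 0.08, with the 25th percentile at -0.13 and the 75th at 0.31, and 146 probes (78.9%) lay within 0.5 of 0. In all, 111 probes (60%) were higher in the 4 h array and 74 were lower. Only 2 probes (1.08%) stood 2-fold or more above 0 h and 1 (0.541%) 2-fold or more below. The probes were dim: the median deposited intensity was 56.7 at 0 h and 64.1 at 4 h, and the spots of a probe varied by a median of 13.4% and 10.6% (coefficient of variation, CV). From these CVs the log2 ratio of a probe had a median spot error of 0.16, a standard error over 3 spots a side that leaves out the error between cultures, extractions and arrays. By that error alone, 55 probes (29.7%) were higher by more than 2 errors and 17 (9.19%) were lower. The p-values in the authors' deposited table, which were recomputed for all 185 probes from the means, CVs and 3 spots a side, measure the same spot error. In the authors' deposited table, 37 probes (20%) were higher and 12 (6.49%) lower at p under 0.05. Both counts of lower probes include miR-709, which was at the top of the scanner's range in both arrays, so that no fold can be read from it.

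**Figure D1:**
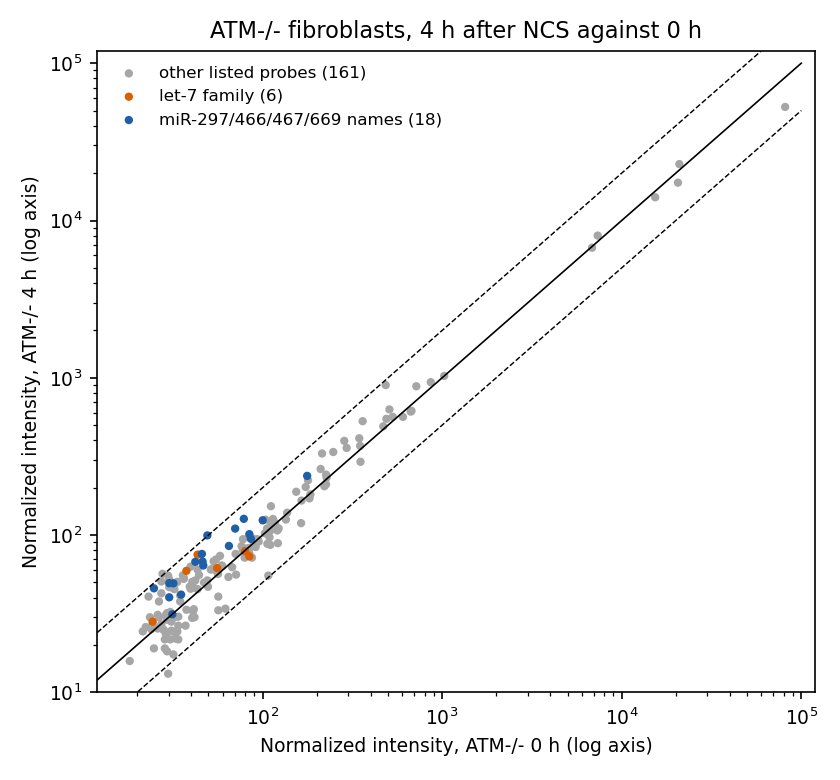
Intensity of each of the 185 probes in the 0 h array (horizontal, log scale) and in the 4 h array (vertical, log scale) of ATM-/- fibroblasts, in deposited intensity units, with let-7 in orange, names that start with miR-297, miR-466, miR-467 or miR-669 in blue, a solid line of equal intensity and dashed lines of 2-fold difference. Most points lie along the line of equal intensity, and the 3 probes past 2-fold read under 100 in both arrays.

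The deposited intensities carry a scaling. Those of each array are whole multiples of 1 step for 100% of probes, which gives a factor of 1.242 for the 0 h array and 0.805 for the 4 h array, with a product of 1. The factors are 1.54-fold apart, so before scaling the 4 h array was the brighter one: the median probe read 45.7 scanner units at 0 h and 79.7 at 4 h. Without the factors the median log2 ratio would be 0.71, so every direction below is one at the deposited scale. Dividing each array by its median in its place would shift all log2 ratios by -0.18, leave 69 of 185 probes (37.3%) above 0 and put none at 2-fold higher and 4 at 2-fold lower. With no scaling, 177 probes (95.7%) would be above 0, 38 at least 2-fold higher and none 2-fold lower. miR-709, the brightest probe, was at the top of the scanner's range in both arrays, at 65467 and 65465 units with almost no spread between spots. Its deposited 81310 at 0 h and 52710 at 4 h differ by the factors alone, and no fold can be read from it.

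The other 9 of the 10 brightest probes had log2 ratios between -0.24 and 0.30. miR-1195 read 20945 at 0 h and 22842 at 4 h, and miR-720, a name since assigned to a tRNA fragment, read 20566 and 17404 (log2 ratio -0.24). miR-145, a miRNA of mesenchymal and smooth muscle cells, read 1027 and 1028. The others were miR-762 (15364 and 14054), miR-1224 (7347 and 8020), miR-690 (6836 and 6716), miR-705 (864 and 938), miR-1892 (718 and 884) and miR-30c-1* (675 and 617).

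The label was checked against miRNAs of fibroblasts and other mesenchymal cells. Of 10 names, 9 were listed, and their intensities summed to 2521 at 0 h and 2664 at 4 h. miR-145, miR-214 (531 at 0 h, 565 at 4 h), miR-22 (489 and 549) and miR-29a (174 and 202) were well above the median probe. miR-21, one of the most abundant miRNAs of cultured fibroblasts, read only 32.3 at 0 h and 45.4 at 4 h, and the shared probe for miR-199a-3p and miR-199b read 29.4 and 18.2. In the ATM+/+ 0 h array, scaled separately, the same probes read 1059 and 317. These defining markers thus lay below the median probe of both ATM-/- arrays. The median log2 ratio of the 9 probes was 0.09, with 6 above 0 (66.7%), near the 60% of all probes. In the ratio table, which holds 8 of them, 7 (87.5%) were above 0 with a median of 0.23. Of the 150 probes in both readouts, 100 (66.7%) were above 0 there.

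Markers of other cell types were few in the sheet. None of the liver, neural or endothelial names was listed. The ratio table, which gives no intensity, holds 1 neural, 1 endothelial, 3 blood, 3 epithelial and 4 pluripotent probes. Of the blood names 1 of 6 was listed, miR-150 at 32.3 and 30.1, and of the epithelial names 1 of 6, miR-141 at 164 and 119 (log2 ratio -0.46 ± 0.10, spot error). miR-141 also stood lower in the ratio table, at -0.42. Of the pluripotent names 2 of 16 were listed, miR-291b-5p at 26.5 and 37.8 (0.51 ± 0.22) and miR-291a-5p at 28.2 and 24.96 (-0.17 ± 0.57). Of the muscle names 4 of 5 were listed, with summed intensities of 223 and 199 and a median log2 ratio of 0.09. Among them miR-1 read 122 and 88.8 (-0.45 ± 0.11), while miR-133a, miR-206 and miR-133b were each within 0.17 of 0. The part of these markers in the other values was not tested.

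Of the 12 highest probes all but miR-466f and miR-685 read under 100 in both arrays. miR-185 read 27.7 at 0 h and 56.8 at 4 h, a log2 ratio of 1.03 ± 0.20 (spot error, as for all errors below), and 0.82 in the ratio table. miR-466f-5p read 49.3 and 99.6, a log2 ratio of 1.02 ± 0.49, with a CV of 57.5% at 0 h. These 2 were the only probes past the 2-fold line, and miR-185 had the narrower error. Just outside the line lay miR-542-5p (0.89 ± 0.27), miR-685 (0.89 ± 0.02) and miR-138 (0.89 ± 0.11).

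miR-685 stood apart from the rest of the highest 12 because it was bright and its spots agreed closely. It read 485 at 0 h and 899 at 4 h with CVs of 0.823% and 2.78%, and its log2 ratio in the ratio table was 1.06. In the ATM+/+ arrays it read 703 at 0 h and 500 at 4 h, a log2 ratio of -0.49 ± 0.04. In ATM-/- cells, against the same 0 h array, it stood at 1.35 at 8 h and 0.02 at 24 h. It was thus higher at 4 h and 8 h in ATM-/- cells and lower at 4 h in ATM+/+ cells. The others of the highest 12 were miR-669e (0.89), miR-1188 (0.81), miR-712* (0.79), let-7c (0.79), miR-466j (0.72), miR-466g (0.71) and miR-466f (0.69).

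The 12 lowest probes also read under 100 in both arrays, except miR-882 and the saturated miR-709. miR-384-3p read 29.8 at 0 h and 13.2 at 4 h, a log2 ratio of -1.18 ± 0.49 with a CV of 57.7% at 0 h. miR-882 read 108 and 55.3 (-0.96 ± 0.13), and lay just outside the 2-fold line. miR-882 stayed at -0.34 with the scaling undone and was also lower in the ratio table, at -0.58, and in the ATM+/+ arrays, at -2.18 ± 0.29. Next came miR-30b (-0.87 ± 0.57) and miR-409-3p, which read 62.1 and 34.1 (-0.87 ± 0.20, -0.22 in the ratio table). The remaining lowest probes ran from miR-103 (-0.77 ± 0.50) through the miR-199a-3p and miR-199b probe (-0.69 ± 0.35), miR-17 (-0.64 ± 0.27), miR-709 and miR-376c* (-0.58 ± 0.17) to miR-702 (-0.57 ± 0.35), miR-30a (-0.49 ± 0.43) and miR-361 (-0.49 ± 0.37).

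**Figure D2:**
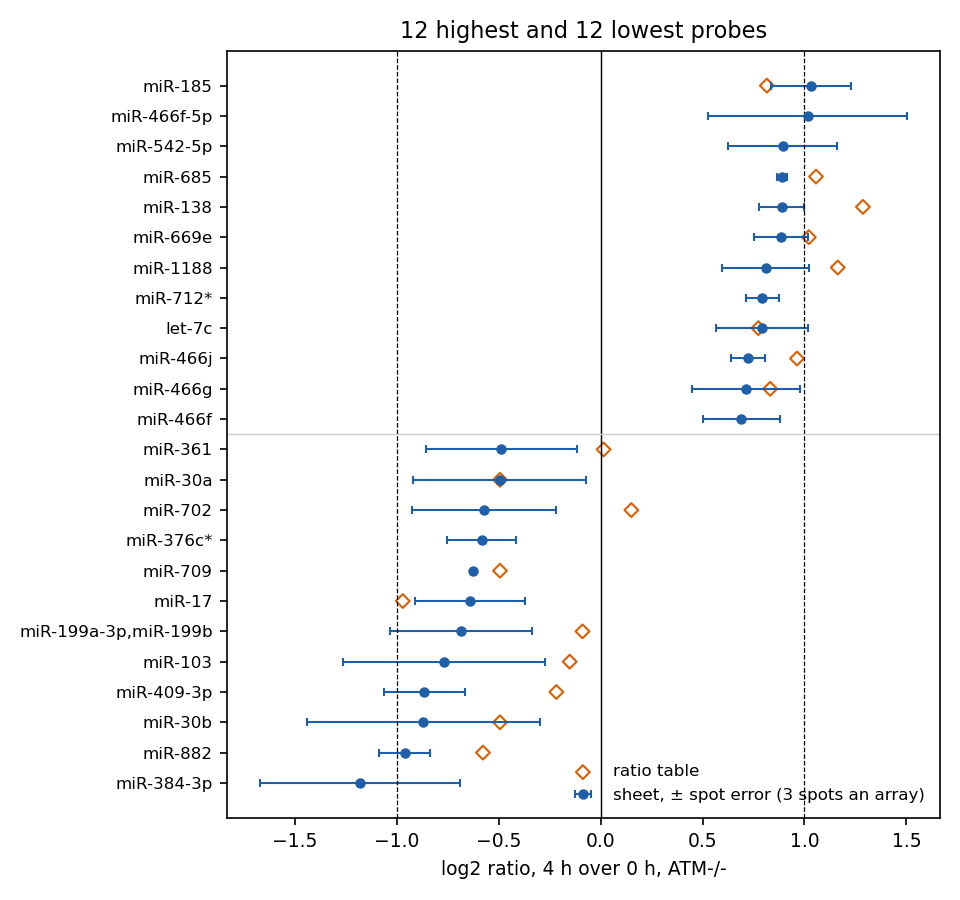
Log2 ratio of 4 h over 0 h (horizontal) for the 12 highest and the 12 lowest of the 185 probes (rows), as blue points with bars of 1 spot error over 3 spots an array, with the ratio table's value as an open orange diamond where it holds the probe and dashed lines at 2-fold. The bars of most of the lowest probes are wide, and the diamonds of several lie nearer to 0 than the points.

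How far a probe could be trusted depended on its intensity. With probes split into 4 equal groups by mean intensity, from dim to bright, the median spot error was 0.35, 0.22, 0.13 and 0.095, and the SD of log2 ratios over probes was 0.42, 0.42, 0.33 and 0.28. The median log2 ratios of the groups were -0.10, 0.32, 0.01 and 0.08, with no order along intensity.

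The probes named miR-297, miR-466, miR-467 and miR-669, called the miR-466 group below, were higher together. These rodent miRNAs resemble each other in sequence, and many lie in an intron of Sfmbt2 on chromosome 2, though RefSeq places miR-466j, miR-467h and miR-467f on other chromosomes, as given above. Of 18 listed probes 17 were above 0, against 60% of all probes, and 14 were higher by more than 2 spot errors, against 29.7%. The median log2 ratio was 0.50 against 0.08, the range was -0.0029 to 1.02, and the summed intensity was 1076 at 0 h and 1514 at 4 h. Several of the probes are for closely related RNAs and may share signal, so they are not 18 separate measurements.

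Past the probes already named, miR-669c was the brightest of the group, at 177 and 238 (0.43 ± 0.09). miR-466c-5p read 100 and 124 (0.31 ± 0.13) and miR-467h 84.5 and 101 (0.26 ± 0.21). miR-466f-3p read 86.1 and 94.7 (0.14 ± 0.04), but stood at 0.82 in the ratio table. miR-466j read 46.0 and 76.0 (0.72 ± 0.08). These 4 lay closer to 0 than miR-466j. By the ratio table, 14 of the 15 members that the sheet also lists were above 0 on the log2 scale, with a median of 0.49, against 100 of 150 shared probes (66.7%). Another 12 members are in the ratio table under a name from another sheet, among them miR-466d-3p at -1.56. Over all 27 the ratio table had 17 above 0 and a median of 0.20, against 118 of its 272 named probes (43.4%) and a median of -0.07. The group thus stood less far above 0 in the ratio table once its unlisted members were counted.

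The same probes lay on the other side in the ATM+/+ arrays at 4 h. There 0 of 18 were above 0, with a median of -1.41, against 88 of 178 shared probes (49.4%). miR-669c read 1298 at 0 h and 275 at 4 h in ATM+/+ cells, and miR-466j 141 and 63.9. The 0 h intensities of these 2 probes were thus higher in the ATM+/+ sheet than in the ATM-/- one, though both sheets were scaled separately. In ATM-/- cells at 8 h, which share the 0 h array, 14 of 15 listed members were above 0 with a median of 0.23, against 65 of 145 shared probes (44.8%). At 24 h 0 of 12 were above 0 with a median of -0.78, against 57 of 126 (45.2%).

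Among names outside the group, miR-1187 and miR-574-5p were looked up for their UG repeats after their values were seen. miR-1187 read 361 at 0 h and 530 at 4 h (0.55 ± 0.16), and 3787 and 747 in ATM+/+ cells. miR-574-5p read 285 and 397 (0.48 ± 0.07), and 2934 and 603 in ATM+/+ cells. Both were higher at 4 h in the ATM-/- array and lower in the ATM+/+ one. miR-467f, a member of the group looked up in the same way for its AC repeats, read 46.4 and 67.9 (0.55 ± 0.42).

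Of the 185 probes' names, 53 matched a RefSeq mature name exactly, and these were searched for the letters UGUGUG in the mature strand as printed, after the values were seen. The letters occurred in 4 of the 53, miR-466j, miR-1187, miR-574-5p and miR-467h, and in 28 of 1674 mouse mature sequences in RefSeq (1.67%). The 4 had a median log2 ratio of 0.52 at 4 h, and -1.96 in ATM+/+ cells. Of the 49 without the letters, 22 were above 0, with a median of -0.02. ACACAC occurred in 1 of the 53, miR-467f, and in 11 of the 1674 (0.657%). let-7b, matched as let-7b-5p, also holds UGUGUG and had a log2 ratio of -0.20, so the letters did not go with a higher value in each case.

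**Figure D3:**
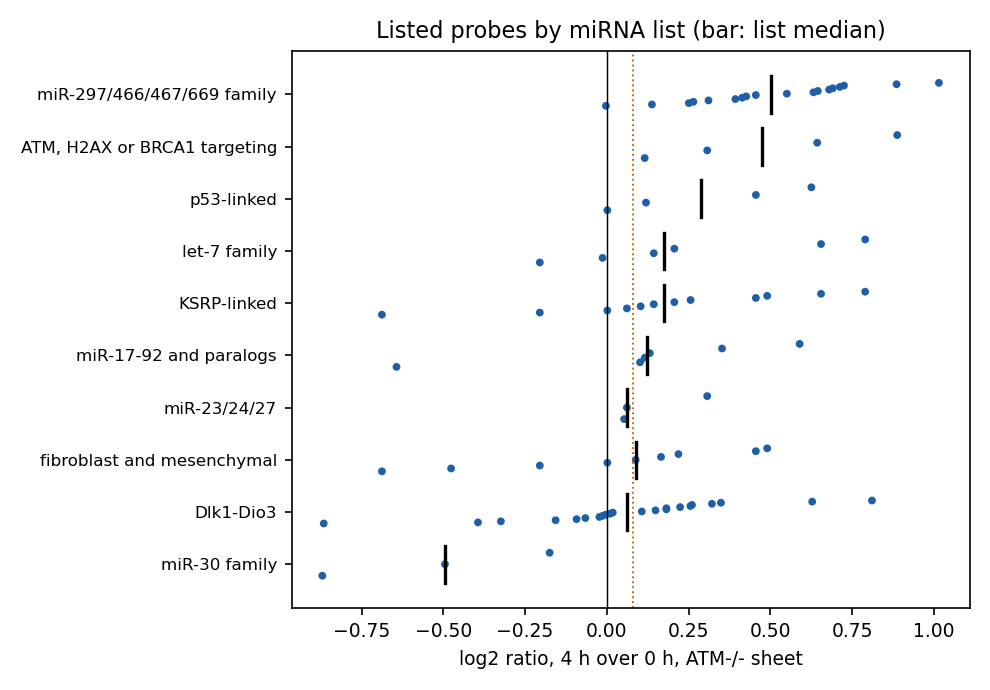
Log2 ratio of 4 h over 0 h at the deposited scale (horizontal) for each probe of 10 miRNA lists (rows), with 1 point a probe, a bar at each list's median and a dotted line at the median of all 185 probes, 0.08. The miR-466 group points lie almost all to the right of the dotted line, and the miR-30 points all lie to the left of 0 at this scale, though their median would be 0.13 with the scaling undone.

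The medians of the lists were also computed under the other scalings, filters and readout planned for them, over the probes that the sheet lists. That of the miR-466 group ran from 0.33 to 0.55, that of the miRNAs targeting ATM, H2AX or BRCA1 from 0.30 to 0.60, and that of the p53-linked miRNAs from 0.09 to 0.46. The medians of let-7 and of the KSRP-linked miRNAs reached -0.0027 when each array was divided by its median, so their sign is not settled.

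Of 9 let-7 names, 5 were listed on 6 probes, and 4 of the 6 probes were above 0, near the 60% of all probes, with a median of 0.17. The ratio table holds all 9 let-7 names, of which 5 were above 0, against 43.4% of its named probes, with a median of 0.01. let-7c read 43.5 at 0 h and 75.1 at 4 h (0.79 ± 0.23), and let-7b read 84.5 and 73.3 (-0.20 ± 0.13). let-7e read 79.9 and 79.2 and let-7d 24.4 and 28.2 (0.21 ± 0.41). The 2 probes for let-7a gave 37.7 and 59.3 (0.65 ± 0.20) and 55.9 and 61.7 (0.14 ± 0.14), a gap of 0.51 within 1 miRNA. The probes of all members ran from -0.20 to 0.79, a range to be read beside that gap. In the ATM+/+ arrays all 6 probes were above 0, against 49.4% of shared probes, with a median of 0.97.

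The miRNAs linked to KSRP, 12 probes listed of 23 names, had a median of 0.17 with 10 above 0, against 60% of all probes, and 0.97 with 11 above 0 in ATM+/+ cells, against 49.4% of shared probes. The list holds the probes of let-7a, let-7b, let-7c and let-7d, so it overlaps that of let-7. Its brightest members were miR-145, miR-125b-5p (346 and 413, 0.26 ± 0.14), miR-143 and let-7b. In the ratio table the 11 probes that the sheet lists had a median of 0.37. All 22 of the list had a median of -0.0072 there, with 10 above 0 (45.5%), near the 43.4% of its named probes. None of the 12 probes passed 2-fold in either direction, and 4 were higher by more than 2 spot errors, near the 29.7% of all probes.

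Of 10 p53-linked names 4 were listed and all 4 were above 0, against 60% of all probes, with a median of 0.29. miR-34a, a direct target of p53, read 36.02 at 0 h and 55.6 at 4 h (0.63 ± 0.30), but only 0.08 in the ratio table. miR-143, transcribed with miR-145, read 111 and 153 (0.46 ± 0.15, 0.66 in the ratio table), while miR-145 itself was at 0.0015 and miR-107 at 0.12 ± 0.51. The ratio table holds 7 of the names, of which 3 (42.9%) were above 0, near the 43.4% of its named probes, with a median of -0.34. miR-34c, another p53 target that the sheet does not list, stood at -1.25 there. In ATM+/+ cells the 4 listed probes had a median of 0.65 and all were above 0, against 49.4% of shared probes.

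Of 9 miRNAs with reported targets among ATM, H2AX and BRCA1, 4 were listed and all 4 were above 0, against 60% of all probes, with a median of 0.47. In the ratio table the 4 had a median of 0.58. All 6 that it holds had a median of 0.34 with 4 above 0, against 43.4% of its named probes. miR-138, which targets H2AX, read 29.8 and 55.2 and had the highest ratio of all 431 probes in the ratio table, 2.44. miR-24, also reported to target H2AX, read 509 and 629 (0.31 ± 0.03). miR-146a, reported to target BRCA1, read 27.3 and 42.7 (0.64 ± 0.21), and miR-18a, reported to target ATM, read 59.2 and 64.1 (0.12 ± 0.23), within its spot error. Of the 4, miR-24 was the only one above an intensity of 100. In ATM+/+ cells their median was 0.80.

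The growth-linked miR-17-92 cluster and its paralogs had 6 of 13 names listed, 5 of them above 0, against 60% of all probes, with a median of 0.12. All 12 in the ratio table had a median of -0.04, with 5 above 0 (41.7%), near the 43.4% of its named probes. miR-93 read 33.5 and 50.5 (0.59 ± 0.24), miR-92a 53.4 and 68.2 (0.35 ± 0.14) and miR-19b 70.8 and 76.0 (0.10 ± 0.07). miR-17 went the other way, at 34.0 and 21.7, and stood at -0.97 in the ratio table. In the ATM+/+ arrays miR-17 was at 0.63 ± 0.07. miR-106b differed between the readouts, at 0.13 ± 0.47 in the sheet and -0.62 in the ratio table.

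The miR-30 probes were the only list of 3 or more with none above 0 at the deposited scale, against 60% of all probes. Their median would, however, be 0.13 with the scaling undone. The median of the 3, of 5 names, was -0.49, both in the sheet and in the ratio table. miR-30d, the bright one, read 121 and 107.1 (-0.17 ± 0.06), while miR-30a and miR-30b had the wide errors given above. In ATM+/+ cells all 3 were above 0, against 49.4% of shared probes, with a median of 0.62.

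In the sheet the other lists had few probes or medians near that of all probes. miR-23a, miR-23b and miR-24, 3 probes of 5 names in the miR-23/24/27 clusters, had a median of 0.06, and only miR-24 differed by more than 2 spot errors. miR-103 and miR-107, 2 of 8 names in the seed group of miR-15, miR-16 and miR-107, had a median of -0.32 with a median spot error of 0.50. miR-29a, 1 of 3 in its family, was at 0.22 ± 0.11. miR-181a (-0.10) and miR-181b (0.47 ± 0.24), 2 of 4, had a median of 0.19. miR-221 (-0.10) and miR-222 (0.29 ± 0.14) had a median of 0.09. The group of miR-99, miR-100 and miR-125, 5 of 7, had a median of 0.10, with miR-125b-3p (226 and 242, 0.10 ± 0.20) the brightest after miR-125b-5p.

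The imprinted Dlk1-Dio3 region on chromosome 12 holds one of the largest miRNA clusters of the mouse, and 22 probes of its 55 names were listed. Of these, 13 (59.1%) were above 0, close to the 60% of all probes, with a median of 0.06. Its brightest members were miR-665 (211 and 263, 0.32 ± 0.15), miR-127 (183 and 171, -0.09 ± 0.06), miR-134 (137 and 139, 0.02 ± 0.12) and miR-300 (123 and 110, -0.16 ± 0.14). In the sheet none of the listed names stood 2-fold off, and the highest and lowest of them were miR-1188 and miR-409-3p. In the ratio table miR-1188 stood at a ratio of 2.24 and miR-485 at 2.09. There 11 of the 20 probes that the sheet also lists were above 0, against 66.7% of shared probes, with a median of 0.06. Over all 39 of the list's named probes, 13 (33.3%) were above 0, against 43.4% of all named probes. Their median was -0.14. The list leaves out miR-882, which was lower, at -0.96, and whose RefSeq position is on the same chromosome close to that of miR-409-3p. It also leaves out miR-540-5p (-0.45), miR-431* (0.55) and miR-127* (0.53), although it holds the other arms of these hairpins. miR-376b* (0.07) and miR-376c* (-0.58) are outside it too. The 22 probes are thus those of the list and not every probe of the region.

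The arms of 1 hairpin did not always lie on the same side of 0. More than 1 arm name was listed for 18 hairpins, of which 8 had the same sign over all their probes. The median gap between the highest and lowest probe of a hairpin was 0.35. Repeat probes of an arm were counted too: the miR-483* probes read 0.05 and -0.12, with miR-483 at -0.13. miR-466f entered with 3 names. miR-540 had the widest gap, 1.07, with miR-540-3p at 0.63 ± 0.12 and miR-540-5p at -0.45 ± 0.42. let-7b and let-7b* lay 0.07 apart, at -0.20 and -0.27. miR-712* stood at 0.79 ± 0.08 and miR-712 at -0.05 ± 0.10, so that the arms differed by more than their spot errors. These pairs were picked after their values were seen.

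The ratio table gave another account of the same 2 arrays. Of its 431 probes, 5 (1.16%) stood 2-fold or more above 0 h and 19 (4.41%) stood 2-fold or more below it. All 5 of the higher are in the sheet: miR-138 at a ratio of 2.44, miR-1188 at 2.24, miR-485 at 2.09, miR-685 at 2.08 and miR-669e at 2.03. None of the 19 lower probes is in the sheet, and only 4 carry a name from another sheet: miR-216a at 0.26, miR-466d-3p at 0.34, miR-34c at 0.42 and miR-380-3p at 0.43, named after their values were seen. miR-466d-3p belongs by name to the miR-466 group, and miR-34c that of the p53 targets, and neither has an intensity at 4 h in the sheet. The median log2 of the ratio was 0.13 over the 150 shared probes and -0.40 over the 281 others.

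Over the 150 shared probes, 31 had opposite signs in the 2 readouts. Across the 76 brighter probes, Pearson's r was 0.88 and the ratio table exceeded the sheet by 0.11 at the median, with an SD of 0.16. Across the 74 dimmer ones r was 0.72, with a median offset of -0.01 and an SD of 0.34. Both readouts come from the same arrays, so r describes the processing and is no replicate. The widest gaps were those of miR-154 (0.18 in the sheet, -0.62 in the ratio table), miR-291a-5p, miR-106b, miR-702 and miR-485 (0.35 and 1.06), whose CVs on the noisier array were 40.1% to 61.3%. Wide gaps were not confined to noisy probes: miR-466f-3p, with CVs of 3.63% and 2.14%, stood at 0.14 in the sheet and 0.82 in the ratio table.

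**Figure D4:**
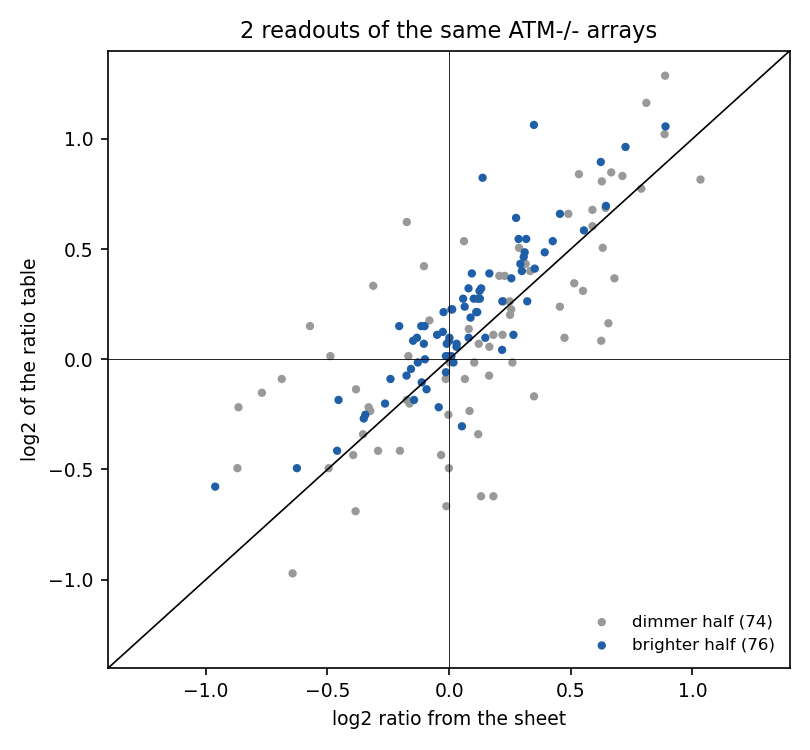
Log2 ratio from the sheet (horizontal) and from the ratio table (vertical) for the 150 shared probes of the ATM-/- arrays at 4 h, with the 76 brighter probes in blue, the 74 dimmer in grey and the line of equality. Most blue points follow the line within a narrow band just above it, and the grey points scatter more widely. Among the blue points, miR-485 (0.35 in the sheet, 1.06 in the ratio table) and miR-466f-3p (0.14 and 0.82) lie far above the line.

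At the same 4 h, the ATM+/+ arrays spread more widely than the ATM-/- ones. Over the 178 probes listed in both sheets, the SD of log2 ratios was 0.91 in ATM+/+ and 0.38 in ATM-/- cells, and in ATM+/+ cells 7 probes (3.93%) were 2-fold or more above 0 h and 37 (20.8%) were 2-fold or more below. The ratios of the 2 genotypes were almost unrelated across probes, with Pearson's r of -0.12 and Spearman's rho of -0.08 over 178 probes, and r of 0.03 over the 160 outside the miR-466 group. The probes of a genotype share their arrays and scaling, and the difference between genotypes was not tested, since each has 1 array a time.

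**Figure D5:**
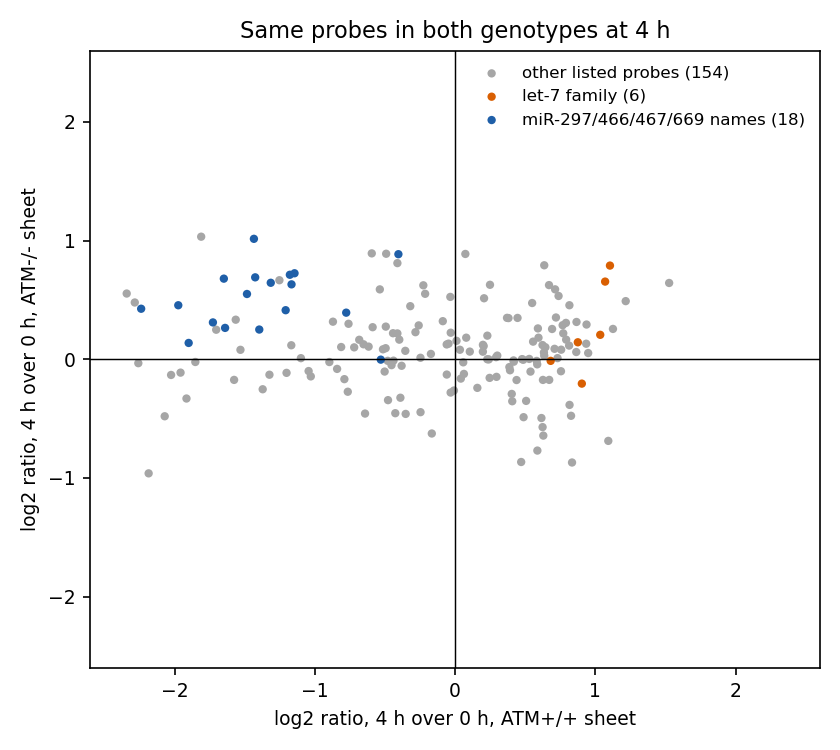
Log2 ratio of 4 h over 0 h in ATM-/- (vertical) and ATM+/+ (horizontal) fibroblasts for the 178 probes in both sheets, with the 18 probes of the miR-466 group in blue and the 6 of let-7 in orange. The blue points lie to the left of 0 and 17 of 18 above it, and the other probes spread along the ATM+/+ axis.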

How the data were processed

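Per the labels' protocols, RNA came from a Trizol extraction, and 4 µg of it went into a ULS labelling reaction for single-colour arrays. The authors deposited, per the file headers, a normalized intensity per probe and array, the CV of its spots in percent, a log2 ratio and a p-value for each treated array against 0 h. They also deposited a table of the ratio of each array to the 0 h array of its genotype. Sheets were tied to samples through the deposited slide lists. Not given in the sources used here are the scanner processing, background correction, normalization and the rule for listing a probe. Unlisted probes have no intensity here. The total depth of an array is unknown, and the number of arrays limits the precision.

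The log2 ratio was computed from the 2 deposited intensities with no pseudocount, and its spot error from the CVs and 3 spots a side. Intensities were tested for whole multiples of a step, with a tolerance of 0.01 and 6 steps a scanner unit, and the code was tested on simulated data. With 1 array a side no test over samples was possible, so a 2-fold threshold was used. The members and lists were chosen with earlier results of these data known. Lists came from general knowledge: let-7, miR-17-92, the seed group of miR-15, miR-16 and miR-107, the clusters of miR-23, miR-24 and miR-27, the families of miR-29, miR-30, miR-181, of miR-99, miR-100 and miR-125, of miR-221 and miR-222, and of miR-297, miR-466, miR-467 and miR-669, Dlk1-Dio3, p53-linked, KSRP-linked and ATM-, H2AX- or BRCA1-targeting miRNAs, and markers of fibroblasts, muscle, liver, neural, blood, epithelial, pluripotent and endothelial cells. Named were the 12 highest and 12 lowest probes, the 10 brightest, the 3 nearest each side of a 2-fold threshold, the 5 with the widest gap between readouts, and up to 4 others a list by intensity at 0 h. Alternatives were 2 other scalings, the ratio table, a pseudocount of 16, a filter at the 25th percentile of intensity (35.9), a CV limit of 20%, averaged probes and a 1.5-fold threshold. Undoing the scaling, and taking each list over all 272 named probes of the ratio table, were added after seeing the data. Sequences are from RefSeq tables on GRCm38.p6. Python 3.11.15 was used with numpy 2.4.6, pandas 2.3.3, scipy 1.17.1 and matplotlib 3.10.9.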

Additional observations from a re-analysis of the deposited data

Results flagged for a closer look

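At 4 h, 23 of 35 probes named for their rank, intensity, closeness to the 2-fold line or gap between readouts, and listed in both sheets, stood on opposite sides of 0 in the arrays of the 2 genotypes. Over all 178 shared probes, 91 (51.1%) did so. The medians of 5 of 19 lists also stood on opposite sides. Each genotype has 1 array a time, so the difference was not tested. All values are log2 ratios of 4 h over 0 h, first in ATM-/- and then in ATM+/+ cells, from sheets scaled separately.

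For 12 of the 23, both values were beyond 2 spot errors. The same count over all 178 shared probes was not made, so the 12 have no background beside them. The 12 highest and 12 lowest probes were named for their ATM-/- ratio, which favours passing 2 spot errors there. Several of the 12 belong to the miR-466 group and may share signal. miR-185 was at 1.03 and -1.81. miR-466f-5p was at 1.02 and -1.43, miR-466f at 0.69 and -1.43, miR-466g at 0.71 and -1.18, miR-466j at 0.72 and -1.14, and miR-669e at 0.89 and -0.40. The bright probes were miR-685 at 0.89 and -0.49, miR-1892 at 0.30 and -0.76, miR-705 at 0.12 and -1.17, and miR-1195 at 0.13 and -0.06. With each ATM-/- array divided by its median, miR-705 would be at -0.059 and miR-1195 at -0.052, both negative as in ATM+/+ cells. Spot errors leave out the scaling, so the sign of both these ATM-/- ratios is not settled. miR-17 was at -0.64 and 0.63, and miR-409-3p at -0.87 and 0.47.

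For the other 11, a value lay within 2 spot errors of 0 in at least 1 genotype. Higher in ATM-/- cells were miR-542-5p at 0.89 and -0.59, miR-1188 at 0.81 and -0.41, and miR-1224 at 0.13 and -0.65. Lower were miR-30b at -0.87 and 0.83, miR-103 at -0.77 and 0.59, the miR-199a-3p and miR-199b probe at -0.69 and 1.09, miR-702 at -0.57 and 0.62, miR-30a at -0.49 and 0.62, miR-361 at -0.49 and 0.49, miR-720 at -0.24 and 0.16, and miR-690 at -0.026 and 0.06.

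Among lists, the 18 probes of the miR-466 group had medians of 0.50 and -1.41, and the miR-30 probes -0.49 and 0.62. miR-103 with miR-107 had -0.32 and 0.61, the muscle markers 0.094 and -0.47, and the pluripotent markers 0.17 and -0.68.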

How the results depend on the processing

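The count of probes at least 2-fold higher was 2, and that of probes at least 2-fold lower was 1. In the same order, both counts were 0 and 4 with each array divided by its median, 0 and 2 by its 75th percentile, 5 and 0 in the ratio table over 150 shared probes, 0 and 0 with a pseudocount of 16, 2 and 0 above the 25th percentile of intensity (139 probes), 1 and 0 with CVs of at most 20% (105 probes), 23 and 8 at 1.5-fold, and 38 and 0 with the scaling undone, an alternative chosen after seeing the data. Averaging probes of 1 name left 2 and 1. The median of all probes, 0.08, was 0.71 with the scaling undone and -0.23 over the ratio table's 431 probes. In the ratio table, 5 higher and 19 lower became 14 and 7 when ratios were divided by their median, and 5 and 0 over the probes that the sheet lists. The cause of these shifts was not tested, apart from fewer probes under the filters and the shift that each scaling adds by construction. The medians of 10 of 19 lists changed sign with each array divided by its median, 4 of 19 with the scaling undone, 3 of 16 under the CV limit, 2 of 19 in the ratio table over listed probes, 10 of 19 over all its named probes (also added after seeing the data) and 1 of 17 under the intensity filter. Named miRNAs changed sign in 5 of 37, 1 of 37, 6 of 30, 0 of 37 and 9 of 37 cases by median, 75th percentile, ratio table, pseudocount and undone scaling. No paired analysis was possible because each genotype and time has 1 array, and for the same reason no array could be left out in turn. Dim probes limit the result: a median of 45.7 scanner units at 0 h leaves wide spot errors.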
